A study of Homo sapiens with 18 samples.

Results

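The genes described are the Wnt ligands, their Frizzled receptors and co-receptors, 6 secreted antagonists (SFRP1, SFRP2, SFRP4, SFRP5, DKK3 and WIF1), the ligand-processing genes PORCN and WLS, and APC, AXIN1 and CTNNB1 as core intracellular components, 43 genes chosen by symbol. All 43 had a row among the 61552 genes of the count table, and 33 had enough reads to be tested. RNA was sequenced from HCT116, an established human colorectal carcinoma line, with knocked-in separation-of-function versions of IκBα, the inhibitor that retains NF-κB dimers in the cytoplasm. The WT groups carried the wild-type protein, the N108 groups a mutant named for residue 108, and the M3 groups a triple mutant with alanine at H84, E85 and E86. Each line was left untreated or given human TNFα for 40 min at a dose of 0.1 µg/mL, with 3 libraries in each of 6 groups and 18 in all. How many clones stand behind each line, and whether its 3 libraries came from separate cultures, is not stated in the labels. Genotype and clone therefore cannot be told apart, and a p-value here speaks of the variation among 3 libraries of a line, which may be technical only.

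Wnt proteins are lipid-modified signals. PORCN attaches the lipid in the endoplasmic reticulum and WLS carries the ligand to the cell surface, where it binds a Frizzled receptor together with LRP5 or LRP6, or with ROR1, ROR2 or RYK in branches that do not use β-catenin. Without a ligand, APC and AXIN1 hold β-catenin (CTNNB1) in a complex that marks it for degradation, and with a ligand β-catenin reaches the nucleus and works with TCF factors. SFRP and WIF1 proteins bind the ligands outside the cell. The pathway maintains stem cells of the intestinal crypt, and HCT116 carries an activating mutation of CTNNB1, so that much of its β-catenin activity does not need a ligand.

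Library totals lay between 49021907 and 76947190 counts. NFKBIA, which encodes IκBα and is itself an NF-κB target, rose with TNF in all 3 lines, from 91.6 ± 4.6 to 758 ± 20 CPM in WT, from 30.2 ± 1.8 to 276 ± 19 in N108 and from 77.9 ± 1.2 to 966 ± 21 in M3 (CPM, reads scaled to a common library total, SD, n = 3). A count of this gene does not read the mutated codons and so checks the treatment labels, not the genotype labels. Of 8 colorectal epithelial marker genes none was at 0 in any group, and their summed level in untreated cells ranged from 6252 to 6581 CPM in WT, from 4837 to 5101 in N108 and 4098 to 4403 in M3, carried mostly by the keratins KRT8, KRT18 and KRT19. The 7 leukocyte markers summed to 0.521 to 4.44 CPM per library, mostly LYZ in WT. The 5 endothelial markers summed to 0.995 to 2.29 CPM. The 8 fibroblast markers reached 19.8 to 39.2 CPM through COL1A1, with 3 to 5 of the 8 at 0 in each group. Of the 7 epithelial markers tested, 1 was higher and 5 lower in untreated N108 than in WT (adjusted p under 0.05, edgeR). In untreated M3, 2 were higher and 5 lower. Of all genes, 20.9% were higher and 21.6% lower in N108, and 26.1% and 26.8% in M3. These marker differences stand beside the results that follow, and their part in them was not tested. In bulk RNA, fewer cells of a kind and less RNA per cell cannot be told apart.

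A motif search in the 250 bases before the RefSeq start of each gene (GRCh38.p14) is given here because a ligand gene, WNT10A, was the member that answered TNF. The windows covered 32 of the 43 members in 38 windows. The NF-κB consensus, read on both strands, lay in 4 member windows, 10.5%, and in 5.2% of the 35116 windows of all genes. Member windows had a median of 71.2% G and C, and the part of base composition in these shares was not tested. The search was made after the TNF values were known. The matches follow 5′ to 3′ on the gene's strand with the motif in capitals.
WNT10A: gggggcctcGGGAAATTCCCcggacccctg
WNT4: cgcccccgggGGGGTGTCCCgggccgctgg
FZD5: gagccggggcGGGGCTTCCCggcgggcatt
FZD9: tgtgggtacgGGGACTTCCCgcagcctctc
The WNT10A stretch, chr2:218880726-218880755 on the plus strand, holds 2 overlapping matches, 1 on each strand, the first beginning 117 bases before the RefSeq start. GENCODE 29 places that stretch in the untranslated part of a WNT10A exon. The letters GGGAAATTCC, taken from the WNT10A window itself, occurred in 52 of all windows, 0.1%. Because the string was picked from that window, this share does not set the WNT10A match apart. The others are at chr1:22143226-22143255 on the minus strand (WNT4, 148 bases before the start), chr2:207769934-207769963 on the minus strand (FZD5, 47 bases) and chr7:73433548-73433577 on the plus strand (FZD9, 220 bases), outside annotated exons. A TCF motif, CTTTGA on either strand, lay in 1 member window (PORCN), 2.6%, and in 11.2% of all windows. A match is a string of letters and not evidence that a factor binds.

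The members covered a wide range of transcript levels. Per kb of annotated exon, averaged over all libraries, CTNNB1 was highest at 41.8 CPM per kb, followed by LRP5 at 23.6, FZD6 at 19.4, WLS at 16.4, FZD2 at 13.4 and RYK at 11.8. The ligands were lower, and their order differed between the lines. In untreated WT, WNT7B led at 3.63 CPM per kb, followed by WNT10B at 3.10 and WNT16 at 2.63. In untreated N108 and M3, WNT10B led at 4.38 and 4.63 CPM per kb, followed by WNT7B in N108 and by WNT6 at 2.13 and WNT7B at 1.94 in M3. The 6 antagonist genes chosen had few or no reads. DKK3, the only one of them that passed the filter, stood at 0.0253 CPM per kb.

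**Figure D1:**
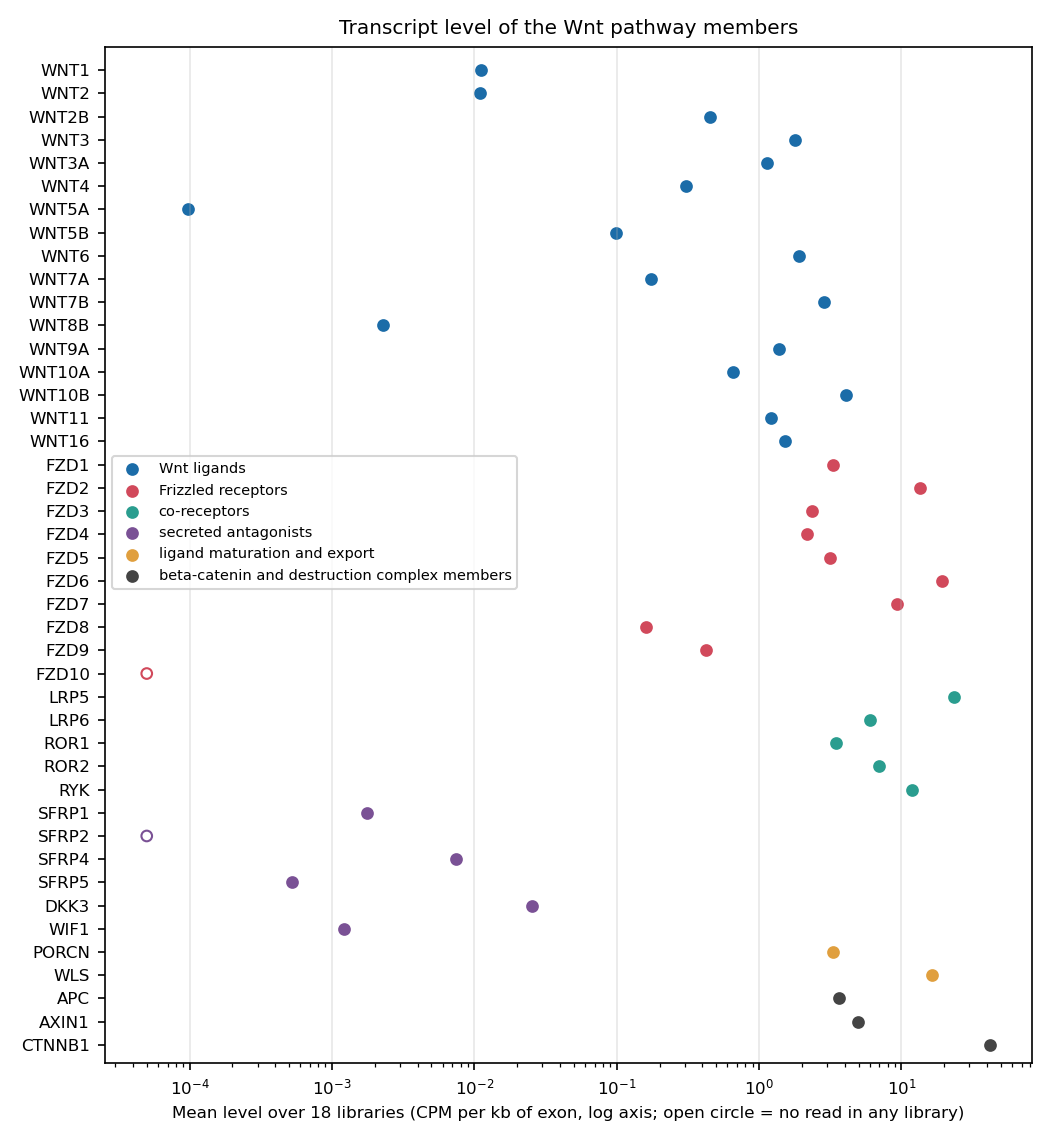
Mean transcript level of the 43 members over 18 libraries (CPM per kb of exon, logarithmic axis), coloured by role, with open circles for genes without a read. CTNNB1 stands highest at 41.8 CPM per kb, and the 6 antagonist genes chosen lie at the left end with FZD10, WNT5A, WNT8B, WNT2 and WNT1.

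Members left out of the tests had few reads. FZD10 and SFRP2 had 0 counts in all 18 libraries, which allows up to 0.00281 CPM over them. WNT5A and SFRP5 had 1 count each over all libraries, WIF1 3, WNT8B 5, SFRP1 10, WNT1 15, SFRP4 29 and WNT2 55. WNT5A and the SFRP genes are therefore members for which no difference between lines could be detected at this depth. These limits cover counting error only, since PCR copies of a molecule were not marked by identifiers.

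In untreated cells, WLS, ROR1, ROR2, WNT10B, WNT6 and FZD3 were higher in both mutant lines than in WT, and WNT16, WNT9A, WNT7B, WNT3A and LRP5 were lower in both. A gene is called where the p-value of edgeR's quasi-likelihood test, adjusted by Benjamini-Hochberg over all 19038 genes tested, was under 0.05. Between N108 and WT, 13 of the 33 members tested were called, where 42.4% of all genes were called: 7 were higher and 6 lower, against 20.9% and 21.6% of all genes. Between M3 and WT, 20 were called, where 52.9% of all genes were called: 9 were higher and 11 lower, against 26.1% and 26.8% of all genes. These shares were near those of all genes, so the number of calls does not set the members apart. A call with at least a 2-fold change was made for 1 member in N108 and 2 in M3, against 5.53% and 9.26% of all genes. Median log2 fold changes were 0.02 and -0.05 for the members and 0.01 and 0.00 for all genes tested. Both contrasts use the same WT libraries, and their values are set side by side.

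With TNF present, 15 members were called between N108 and WT, where 46.7% of all genes were called. Of these 9 were higher and 6 lower, against 23% and 23.6% of all genes. Between M3 and WT 22 were called, where 54.7% of all genes were, 9 higher and 13 lower, against 26.9% and 27.8%. Calls of at least 2-fold numbered 2 in N108 and 4 in M3, against 6.77% and 10.5% of all genes. The TNF-treated libraries share no library with the untreated ones but come from the same lines. Of the untreated calls for N108, 11 were called in the same direction with TNF, 84.6% of the untreated calls and 73.3% of the TNF calls, and for M3 18 were, 90% and 81.8%. Over all genes tested these shares were 69.7% and 63.4% for N108, and 82% and 79.4% for M3. No member was called in opposite directions. Called only in the TNF-treated cells were WNT2B (0.25), FZD8, PORCN and CTNNB1 for N108, and WNT4 (-0.42), WNT10A, FZD2 (-0.18) and PORCN for M3. WNT2B was lost without N108 TNF replicate 2 and without WT TNF replicate 3 (0.14), WNT4 without M3 TNF replicate 1 or WT TNF replicates 2 or 3, and FZD2 without M3 TNF replicates 2 or 3 or WT TNF replicate 3. Called only in the untreated cells were WNT3A and FZD3 for N108, and WNT6 and FZD7 for M3. With TNF their log2 differences from WT were -0.09 and 0.17 in N108, and 0.075 and 0.005 in M3. The interaction tests given with the TNF results did not call a difference between conditions for any of the genes called in 1 condition only.

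**Figure D2:**
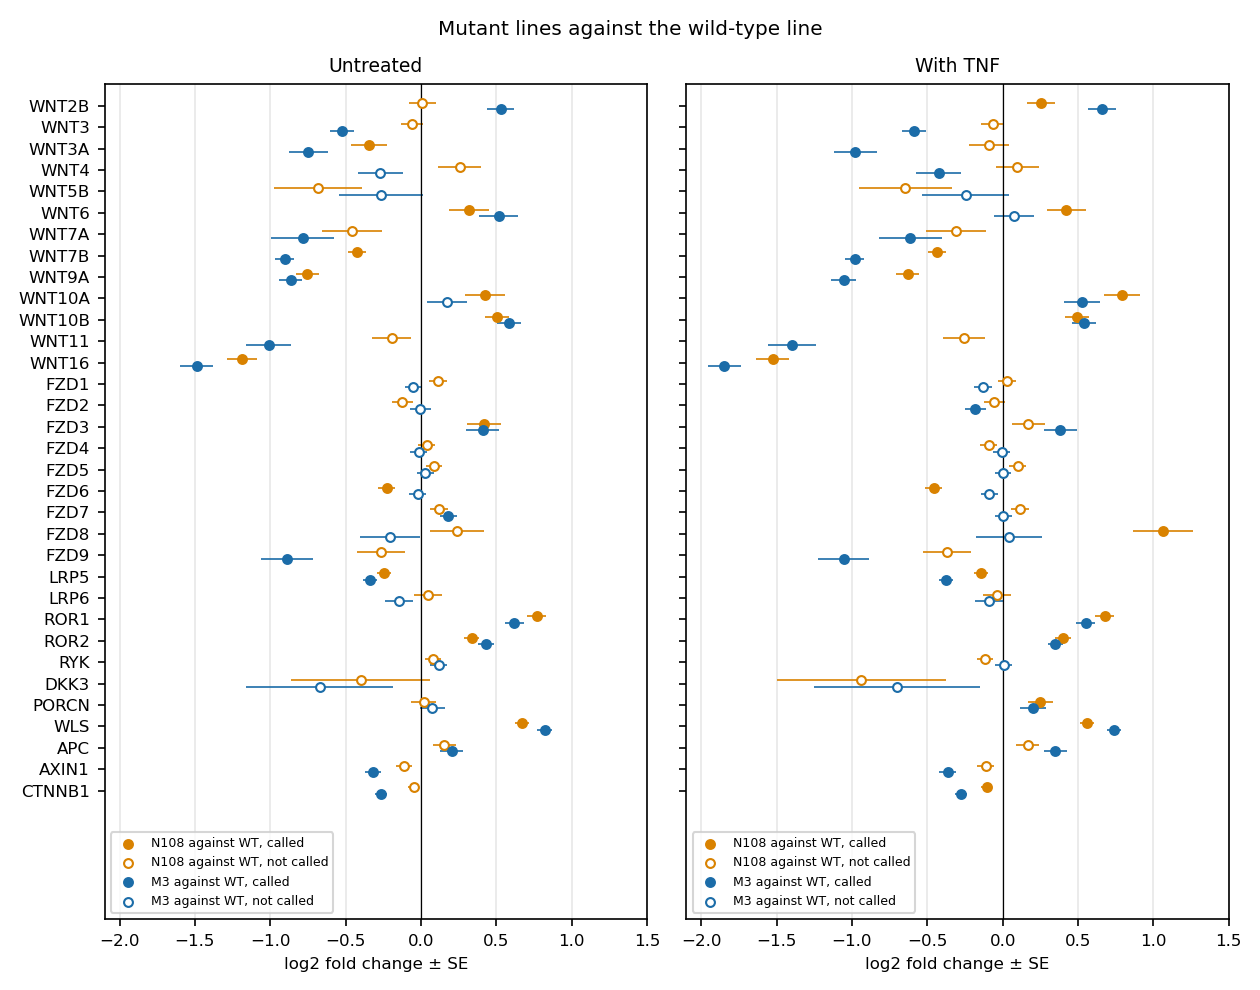
Log2 fold change ± SE of each tested member in N108 (orange) and M3 (blue) against WT, untreated on the left and with TNF on the right, with filled circles where edgeR's adjusted p was under 0.05. WNT16 lies farthest left in all 4 comparisons, and WLS and ROR1 lie to the right.

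Of the 13 ligand genes tested, 3 were higher and 4 lower in untreated N108, and 3 higher and 7 lower in untreated M3. These calls are 53.8% and 76.9% of the ligands tested, beside 42.4% and 52.9% of all genes. Their median log2 fold changes were -0.19 and -0.52. In WT the ligands summed to 71.3 ± 3.3 CPM, against 61.3 ± 1.7 in N108 and 54.3 ± 2.5 in M3 (SD, n = 3). With TNF the sums were 74.0 ± 2.4, 65.6 ± 2.4 and 53.0 ± 1.1 CPM. The sums in the 3 lines did not overlap in either condition, with M3 lowest. In untreated M3 the largest drops in CPM were those of WNT7B (18.4 in WT to 9.78), WNT16 (8.56 to 3.05) and WNT9A (7.48 to 4.10). The 3 ligands called higher there went the other way, so the sum does not speak for every ligand.

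WNT16, a ligand known from bone and the skin, had the largest fall among the members. Its levels in untreated WT were 9.06, 7.98 and 8.64 CPM, in N108 3.64, 4.27 and 3.32 and in M3 3.20, 2.97 and 2.98. All WT libraries lay above all mutant libraries. Separation from WT, in either direction, held for 20 of the 33 members tested in untreated N108 and 23 in untreated M3. It therefore does not set WNT16 apart, and the share over all genes is not given here. The log2 fold change was -1.19 (SE 0.10, adjusted p 2.5e-10) in N108 and -1.49 (SE 0.11, adjusted p 3.2e-12) in M3, a 2.81-fold lower level in the latter. With TNF, WNT16 stood at 7.32, 9.09 and 9.78 CPM in WT, 2.95, 3.16 and 3.02 in N108 and 2.13, 2.54 and 2.66 in M3, again without overlap with WT, with log2 differences of -1.52 and -1.85. WNT16 lies on chromosome 7 from 121325367 to 121341104 (GRCh38, GENCODE 29, plus strand), and no other gene shares its exon bases.

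WNT9A was also lower in both mutant lines. In untreated cells it measured 7.43, 7.64 and 7.36 CPM in WT, 4.58, 4.04 and 4.73 in N108 and 4.19, 4.32 and 3.79 in M3. The WT libraries were separate from both mutant groups, whereas N108 and M3 overlapped. The log2 changes were -0.75 (SE 0.08, adjusted p 7.1e-09) and -0.87 (SE 0.08, adjusted p 3.9e-10). With TNF the levels were 7.79, 7.80 and 8.01 CPM in WT, 5.34, 5.00 and 4.90 in N108 and 3.76, 3.73 and 3.85 in M3. The 3 lines no longer overlapped there, and N108 and M3 stood -0.63 and -1.06 from WT on the log2 scale. WNT9A lies on chromosome 1, 59152 bases from WNT3A, which encodes a ligand of the β-catenin branch. WNT3A was called lower in untreated M3 (-0.75, adjusted p 2.2e-05) and in untreated N108 (-0.34, adjusted p 0.027), and the N108 call was lost without WT replicate 3 (-0.20, adjusted p 0.23), without N108 replicate 2 and after removal of each library's GC trend (-0.22, adjusted p 0.12).

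WNT11, a ligand of the branches that do not use β-catenin, was called lower in M3 and not in N108, and the mutants differed when compared directly. Untreated levels were 3.33, 3.42 and 4.42 CPM in WT, 3.19, 3.13 and 3.37 in N108 and 1.68, 1.62 and 2.19 in M3. The M3 libraries lay below all others, and WT and N108 overlapped. Against WT, M3 differed by -1.01 (SE 0.15, adjusted p 1.6e-06) and N108 by -0.19 (SE 0.13, adjusted p 0.26), and N108 stood 0.82 above M3 (SE 0.15, adjusted p 0.0001). With TNF the levels were 3.92, 3.31 and 4.47 CPM in WT, 3.13, 3.22 and 3.45 in N108 and 1.10, 1.66 and 1.74 in M3. M3 was again below both, by -1.40 against WT, and N108 exceeded M3 by 1.14 (adjusted p 1.9e-06). WNT11 shares 204 exon bases with an antisense gene that had 0 counts in every group.

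The other ligands changed by less than 2-fold. WNT7B, the highest ligand of the WT line, fell from 18.4 ± 1.3 CPM in WT to 13.7 ± 0.8 in N108 (-0.42, adjusted p 1.9e-06) and 9.78 ± 0.29 in M3 (-0.91, adjusted p 1.6e-12). WNT10B, the highest ligand per kb in both mutant lines, rose from 8.15 ± 0.61 to 11.5 ± 0.4 and 12.2 ± 1.1 CPM (0.50 and 0.58, adjusted p 6.8e-06 and 4.5e-07). These 2 genes of the β-catenin branch thus moved in opposite directions. In M3, WNT3 fell by 0.52 and WNT7A by 0.79, both called, and WNT6 (0.52, adjusted p 0.0012) and WNT2B (0.53, adjusted p 1.2e-05) rose. WNT2B shares 2661 exon bases with ST7L on the opposite strand, whose level rose by 0.29 in M3 (adjusted p 0.00049). Whether counting used strand is not stated in the labels or notes. Reads in the shared part, 2661 of the 12561 exon bases of WNT2B, may therefore not be told apart. In N108, WNT6 was called at 0.32 (adjusted p 0.045), but DESeq2 and the omission of any of 5 libraries, N108 replicates 1 and 3 and WT replicates 1, 2 and 3, ended that call, with 0.19 left without N108 replicate 1. WNT10A was 0.42 higher (adjusted p 0.0072), a call lost without WT replicate 2 (adjusted p 0.062). WNT4 was not called against WT untreated. WNT5B stood low, with 0.531 ± 0.066 CPM in WT against 0.336 ± 0.089 and 0.445 ± 0.17 in N108 and M3, and was not called in any comparison.

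Among Frizzled receptors, 9 of 10 were tested, and 2 were called in untreated N108 and 3 in untreated M3, or 22.2% and 33.3%, beside 42.4% and 52.9% of all genes. FZD3, a receptor used in axon guidance, was 0.42 higher in N108 (adjusted p 0.0049) and 0.41 higher in M3 (adjusted p 0.0044), from 26.9 ± 0.9 CPM in WT. FZD6, the most abundant Frizzled transcript per kb, was 71.0 ± 2.6 CPM in N108 against 83.1 ± 3.3 in WT (-0.23, adjusted p 0.0017), and 81.9 ± 7.1 in M3. It shares 138 exon bases with BAALC-AS1, an antisense gene at 5.74 to 7.31 CPM. FZD7, a receptor of epithelial stem cells, was 0.18 higher in M3 (adjusted p 0.0099), a call lost without WT replicate 2. FZD1, FZD2, FZD4 and FZD5 were not called against WT in untreated cells. FZD4 shares 1399 exon bases with PRSS23 on the other strand. PRSS23 was -1.78 in N108 and -2.99 in M3 while FZD4 stayed between 15.4 and 16.8 CPM in all group means.

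FZD9, on chromosome 7, was the Frizzled gene with the lowest M3 to WT ratio. Untreated values were 1.24, 1.27 and 1.14 CPM in WT, 0.906, 1.03 and 1.11 in N108 and 0.658, 0.569 and 0.754 in M3. M3 lay below both other lines, and N108 lay just below WT. M3 differed from WT by -0.89 (SE 0.17, adjusted p 7.7e-05) and N108 by -0.26 (SE 0.16, adjusted p 0.18). With TNF the values were 1.24, 1.38 and 1.43 CPM in WT, 1.19, 0.829 and 1.10 in N108 and 0.611, 0.595 and 0.742 in M3, and the M3 difference was -1.06 (adjusted p 1e-05). N108 exceeded M3 by 0.63 and 0.69 in the 2 conditions (adjusted p 0.0068 and 0.0034).

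FZD8 differed in the TNF-treated cells. Its levels there were 0.447, 0.448 and 0.487 CPM in WT, 1.01, 0.887 and 1.00 in N108 and 0.501, 0.390 and 0.524 in M3. All N108 libraries lay above the other 6. The log2 difference was 1.06 against WT (SE 0.20, adjusted p 7e-05) and 1.02 against M3 (SE 0.19, adjusted p 0.00014). In untreated cells the levels were 0.567, 0.768 and 0.640 CPM in WT, 0.839, 0.769 and 0.720 in N108 and 0.675, 0.536 and 0.491 in M3, with overlap between WT and N108 and no call. The interaction, which tests whether TNF moved FZD8 differently in N108 and WT, was 0.82 (SE 0.27, adjusted p 0.09) and was not called.

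Of the 5 co-receptors, ROR1 and ROR2 were called higher in both mutant lines and LRP5 lower, and RYK and LRP6 were not called. ROR1, a receptor tyrosine kinase-like protein that binds WNT5A, rose from 16.3 ± 0.3 CPM in WT to 27.6 ± 1.1 in N108 (0.77, SE 0.06, adjusted p 1.1e-10) and 24.9 ± 1.8 in M3 (0.62, SE 0.06, adjusted p 4.5e-09). ROR2 rose from 33.0 ± 0.9 to 41.7 ± 1.8 and 44.5 ± 1.5 CPM (0.34 and 0.43, adjusted p 4.8e-06 and 5.1e-08). RYK stood at 88.6 ± 2.7, 93.7 ± 2.4 and 96.1 ± 6.3 CPM and was not called. With TNF, ROR1 was 0.68 and 0.55 and ROR2 0.40 and 0.35 above WT, all called.

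LRP5, a co-receptor of the β-catenin branch, was lower in both mutant lines. Untreated levels were 155, 164 and 167 CPM in WT, 142, 128 and 140 in N108 and 127, 129 and 129 in M3. The WT libraries were above all others, with N108 replicate 2 within the M3 range. The log2 changes were -0.25 (SE 0.05, adjusted p 0.0001) and -0.34 (SE 0.05, adjusted p 9.1e-07), and the N108 value was -0.15 after each library's GC trend was removed. With TNF LRP5 measured 167, 162 and 169 CPM in WT, 149, 158 and 144 in N108 and 124, 126 and 133 in M3. These differed by -0.14 and -0.38, and the N108 call was lost without N108 TNF replicate 3 (adjusted p 0.068).

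LRP6, the partner co-receptor, was not called in any of the 12 comparisons. Untreated values were 61.3, 61.2 and 65.0 CPM in WT, 64.4, 65.4 and 63.9 in N108 and 58.1, 60.3 and 50.9 in M3. With TNF they were 71.0, 67.9 and 55.5 in WT, 64.5, 53.8 and 70.9 in N108 and 64.4, 59.1 and 58.7 in M3. The ranges of WT and N108 overlapped in both conditions. In untreated cells the M3 libraries lay below those of WT and N108 (-0.15 from WT, adjusted p 0.2), and with TNF they overlapped with both.

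WLS, the carrier that brings lipid-modified Wnt ligands to the surface, showed the smallest p-value of all members in N108 and in M3 untreated. Its untreated levels were 50.6, 49.3 and 50.2 CPM in WT, 77.3, 79.4 and 82.6 in N108 and 90.0, 86.8 and 88.1 in M3. The 3 lines did not overlap. WLS was 0.67 higher in N108 (SE 0.05, adjusted p 2.7e-12) and 0.82 higher in M3 (SE 0.05, adjusted p 2.3e-14). With TNF it measured 51.5, 51.9 and 56.4 CPM in WT, 81.3, 75.0 and 79.1 in N108 and 91.0, 88.8 and 87.2 in M3, with log2 differences of 0.56 and 0.74. WLS lies on chromosome 1 from 68098473 to 68233120 (minus strand) and shares 111 exon bases with GNG12-AS1, which stood at 0.390 to 0.657 CPM in the group means.

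PORCN, the acyltransferase that lipidates the ligands, was not called in untreated cells. Its levels were 9.23, 10.2 and 9.52 CPM in WT, 9.85, 9.36 and 10.2 in N108 and 9.90, 9.72 and 10.9 in M3. With TNF they were 9.21, 8.78 and 9.12 in WT, 10.6, 11.7 and 10.1 in N108 and 11.6, 10.8 and 8.68 in M3. N108 lay above WT with TNF, whereas M3 overlapped with it. The calls with TNF, 0.25 (adjusted p 0.017) and 0.20 (adjusted p 0.048), were lost in 3 and 8 of 12 other settings. The N108 call was lost without N108 TNF replicate 2 or WT TNF replicate 2, the M3 call without M3 TNF replicates 1 or 2 or any WT TNF library, and the M3 value fell to 0.12 without M3 TNF replicate 1 and rose to 0.32 without M3 TNF replicate 3.

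**Figure D3:**
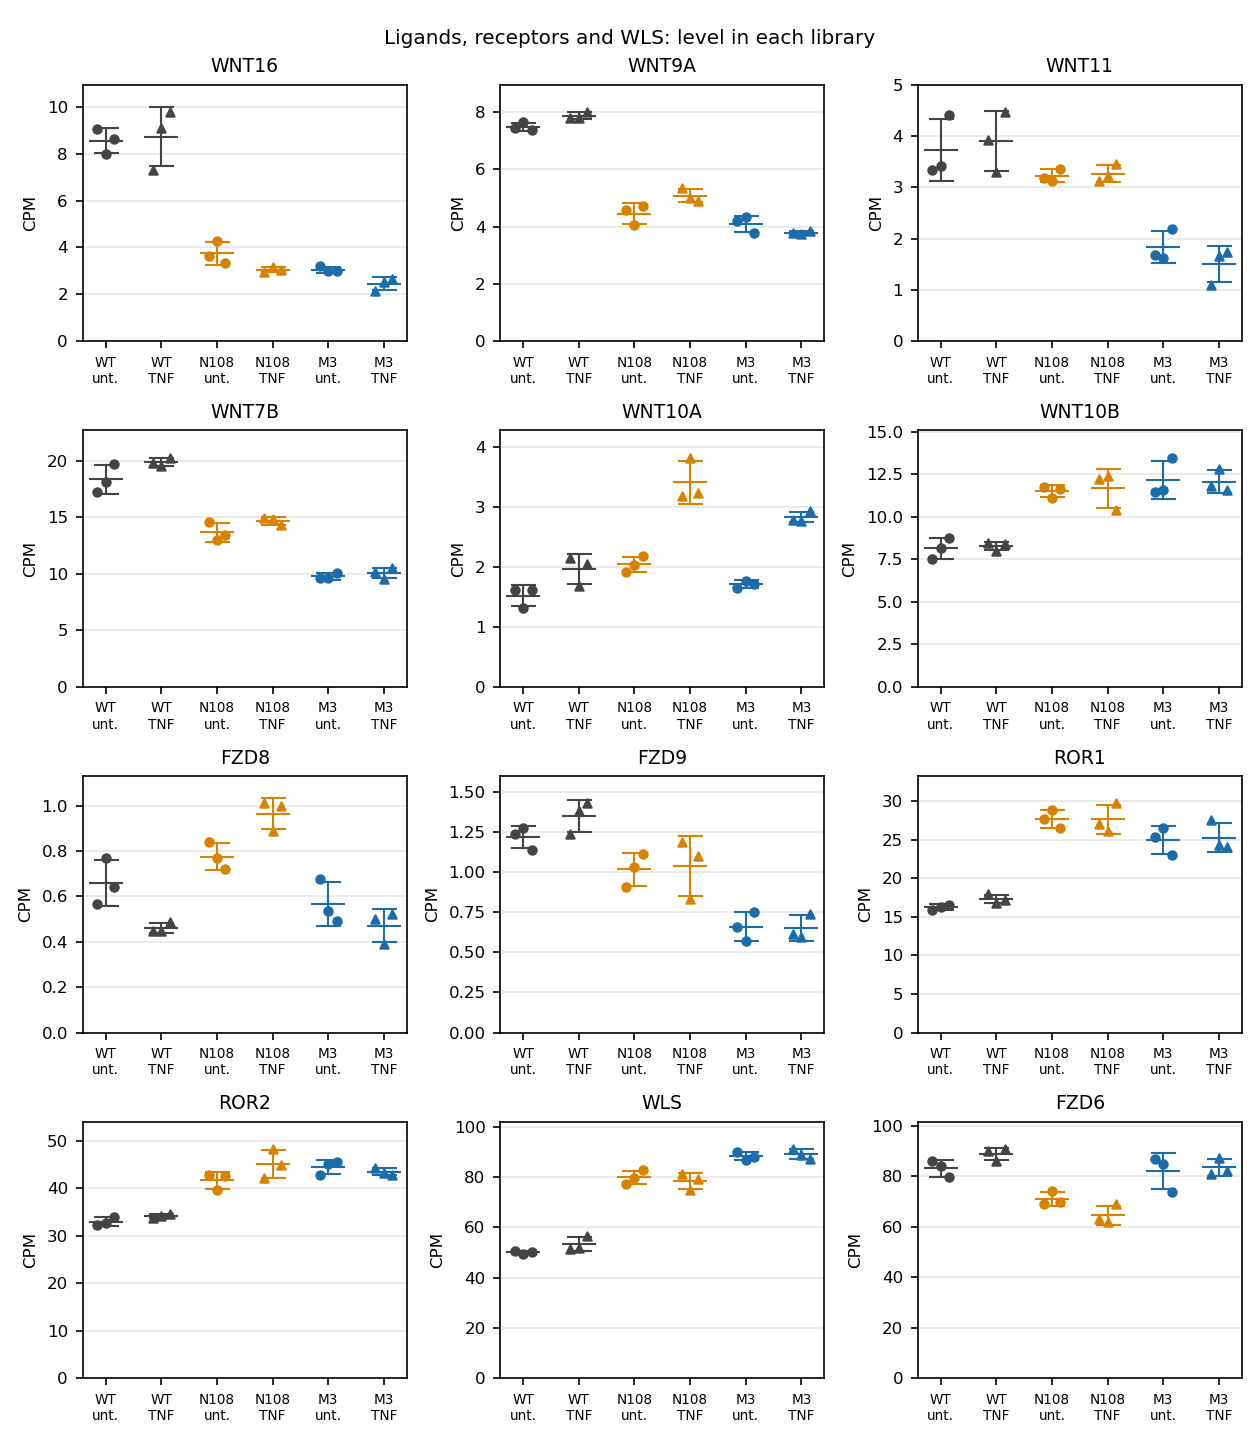
Level in each library (CPM, linear axes from 0) of 12 members, circles for untreated and triangles for TNF, with the mean ± SD of 3 libraries per group. WNT16, WNT9A and WNT7B are highest in WT, WNT11 and FZD9 are lowest in M3, WLS and ROR1 are lowest in WT, and WNT10A rises with TNF in N108 and M3.

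CTNNB1, which encodes β-catenin, was lower in M3. Untreated levels were 532, 524 and 516 CPM in WT, 514, 500 and 505 in N108 and 435, 442 and 433 in M3. M3 lay below all libraries of the other lines, at -0.26 from WT (SE 0.04, adjusted p 1.9e-06), and N108 stood at -0.05 (SE 0.04, adjusted p 0.33). With TNF the levels were 546, 539 and 573 CPM in WT, 498, 531 and 510 in N108 and 463, 450 and 456 in M3. The M3 difference was -0.28 (adjusted p 9.1e-07), and the N108 difference of -0.11 (adjusted p 0.025) was lost in 4 other settings, among them without N108 TNF replicates 1 or 3 and without WT TNF replicate 3.

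AXIN1, the scaffold of the destruction complex, followed the same order. It measured 40.4, 39.5 and 42.5 CPM in untreated WT, 37.5, 35.9 and 39.7 in N108 and 31.6, 32.0 and 34.5 in M3. M3 was separate from both lines, by -0.32 from WT (SE 0.05, adjusted p 1.7e-05), while N108 and WT overlapped at 39.7 and 39.5. With TNF it measured 41.8, 38.9 and 42.7 CPM in WT, 38.2, 40.0 and 35.9 in N108 and 32.2, 31.2 and 32.2 in M3, a difference of -0.37 for M3 (adjusted p 2.5e-06).

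APC, the other scaffold, was higher in M3 rather than lower. It measured 41.2, 40.6 and 42.0 CPM in untreated WT, 44.4, 45.6 and 47.8 in N108 and 47.5, 50.7 and 44.5 in M3. The M3 call of 0.20 (SE 0.08, adjusted p 0.026) was lost without WT replicates 1 or 2, without M3 replicates 1 or 2 and after removal of GC trends. With TNF it measured 44.3, 43.5 and 35.4 CPM in WT, 45.6, 41.9 and 50.6 in N108 and 56.2, 49.2 and 51.1 in M3. M3 was then 0.35 above WT (SE 0.08, adjusted p 0.00048), with no library of either group overlapping.

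**Figure D4:**
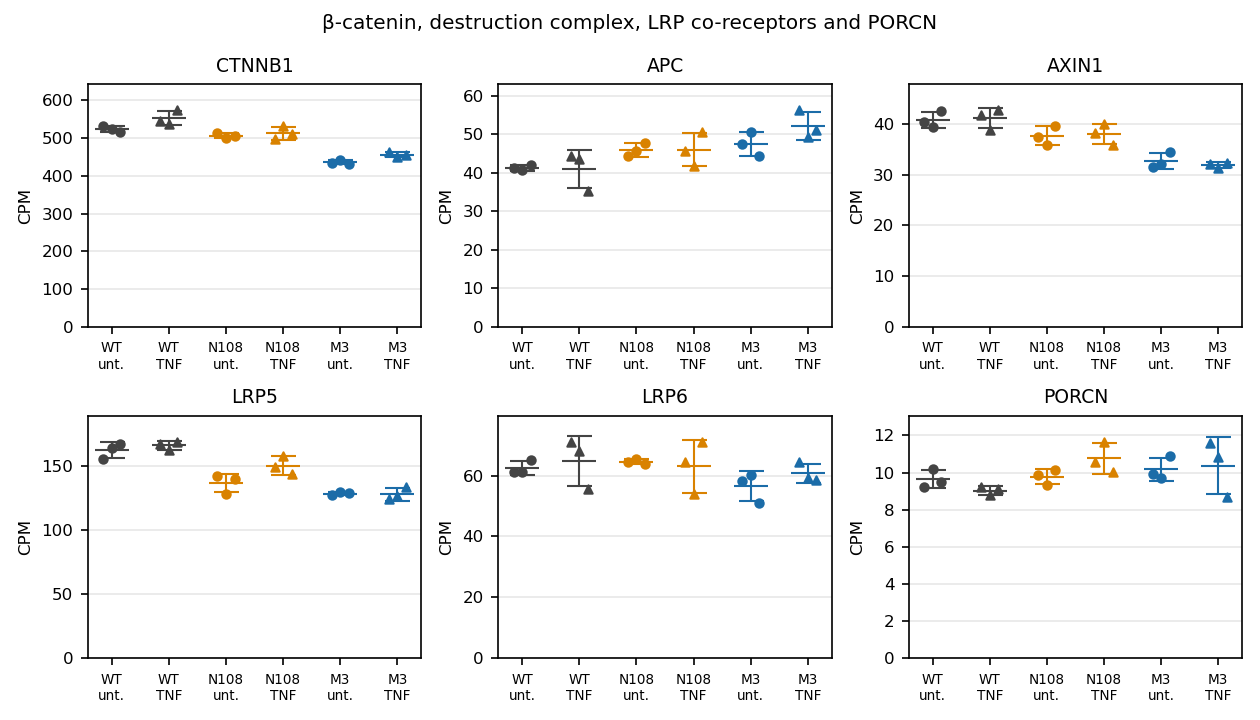
Level in each library (CPM, linear axes from 0) of CTNNB1, APC, AXIN1, LRP5, LRP6 and PORCN, with the mean ± SD of 3 libraries per group. CTNNB1 and AXIN1 are lowest in M3, LRP5 is highest in WT, and LRP6 overlaps between WT and N108.

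DKK3, the only 1 of the 6 chosen antagonists that was tested, was at 0.183 ± 0.069 CPM in untreated WT, 0.140 ± 0.064 in N108 and 0.113 ± 0.009 in M3. It was not called in any comparison, with standard errors of 0.46 to 0.62 in the genotype comparisons. A log2 difference of -0.94 between N108 and WT with TNF (SE 0.56, adjusted p 0.18) was not called, so changes of that size could be missed.

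N108 and M3 were also compared directly, which tests where the mutants differ from each other. In untreated cells 13 of 33 members were called, where 31.5% of all genes were called. Of these 10 were higher in N108 and 3 lower, against 16.4% and 15% of all genes. With TNF 17 were called, where 37.3% of all genes were, 14 higher and 3 lower, against 20% and 17.3%. Calls of at least 2-fold numbered 0 untreated and 2 with TNF, WNT11 and FZD8, against 3.57% and 3.98% of all genes. All 13 untreated calls were also called with TNF in the same direction, 100% and 76.5% of the respective lists, and over all genes the shares were 69.7% and 58.7%. Among the ligands, WNT11 (0.82), WNT4 (0.53, adjusted p 0.0065), WNT7B (0.48), WNT3 (0.47), WNT3A (0.41) and WNT16 (0.30, adjusted p 0.046) were higher in untreated N108 and WNT2B (-0.52) was lower. The WNT3A call was lost without N108 replicates 1 or 3 or without M3 replicate 1. WNT16 was lost under DESeq2 and without N108 replicates 1 or 2 or any M3 library, and its value fell to 0.18 without N108 replicate 2. CTNNB1 was 0.21 (adjusted p 9.7e-05) and AXIN1 0.20 (adjusted p 0.0051) higher in untreated N108, and FZD6 (-0.21) and WLS (-0.15, adjusted p 0.015) were lower. The WLS call was lost without replicate 1 of either line, and FZD1 (0.16, adjusted p 0.036) was lost without any 1 of the 6 libraries. With TNF, WNT6 (0.35), WNT9A (0.43), FZD8 and LRP5 joined the calls, and WNT6 was lost without N108 TNF replicates 1 or 2 and without M3 TNF replicate 1 (0.21, adjusted p 0.24), and after removal of GC trends (0.15, adjusted p 0.29). The differences of LRP5 and AXIN1 with TNF, 0.23 and 0.25, became 0.09 and 0.10 after removal of each library's GC trend and were no longer called.

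TNF for 40 min changed few members. In WT 0 of 33 were called by edgeR, where 5.18% of all genes were called, with 3 at an unadjusted p under 0.05 and 0 by DESeq2. In N108 and in M3 1 of 33 was called, WNT10A in both, where 1.20% and 1.38% of all genes were called.

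WNT10A, a ligand of the β-catenin branch known for its role in teeth, hair and skin, was higher with TNF in every line by its library values. In WT it measured 1.62, 1.32 and 1.62 CPM untreated and 2.15, 1.68 and 2.05 with TNF. In N108 it measured 1.91, 2.03 and 2.17 untreated and 3.18, 3.82 and 3.23 with TNF. In M3 it measured 1.64, 1.77 and 1.72 untreated and 2.79, 2.77 and 2.93 with TNF. In all 3 lines the treated libraries lay above the untreated ones, which held for 27.9%, 14.8% and 15.9% of all genes in either direction, and the N108 and M3 gaps were the wider. The log2 change was 0.74 in N108 (SE 0.11, adjusted p 0.00014), 0.72 in M3 (SE 0.12, adjusted p 0.0004) and 0.37 in WT (SE 0.13, adjusted p 0.11). The interaction tests did not separate the lines, at 0.37 for N108 against WT (adjusted p 0.21), 0.36 for M3 against WT (adjusted p 0.58) and 0.01 for N108 against M3 (adjusted p 0.99). With each library's GC trend removed, the WT change was 0.46 and called (adjusted p 0.018), and the interaction of N108 with WT was 0.15. With TNF present, WNT10A was 0.79 above WT in N108 (adjusted p 3.4e-06) and 0.53 above it in M3 (adjusted p 0.00055).

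Upstream on chromosome 2 lies WNT6, which begins at 218859821 and ends 6129 bases before WNT10A on the same strand (GRCh38, GENCODE 29). WNT6 was not called for TNF. It measured 2.52 ± 0.09 and 2.96 ± 0.20 CPM in WT, 3.18 ± 0.53 and 3.97 ± 0.31 in N108 and 3.62 ± 0.44 and 3.13 ± 0.50 in M3, untreated and treated. WNT4, FZD5 and FZD9, the other members with an NF-κB match in the window, had TNF changes in WT of 0.28, 0.03 and 0.15, in N108 of 0.12, 0.04 and 0.04 and in M3 of 0.12, 0.01 and -0.02, with no call.

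**Figure D5:**
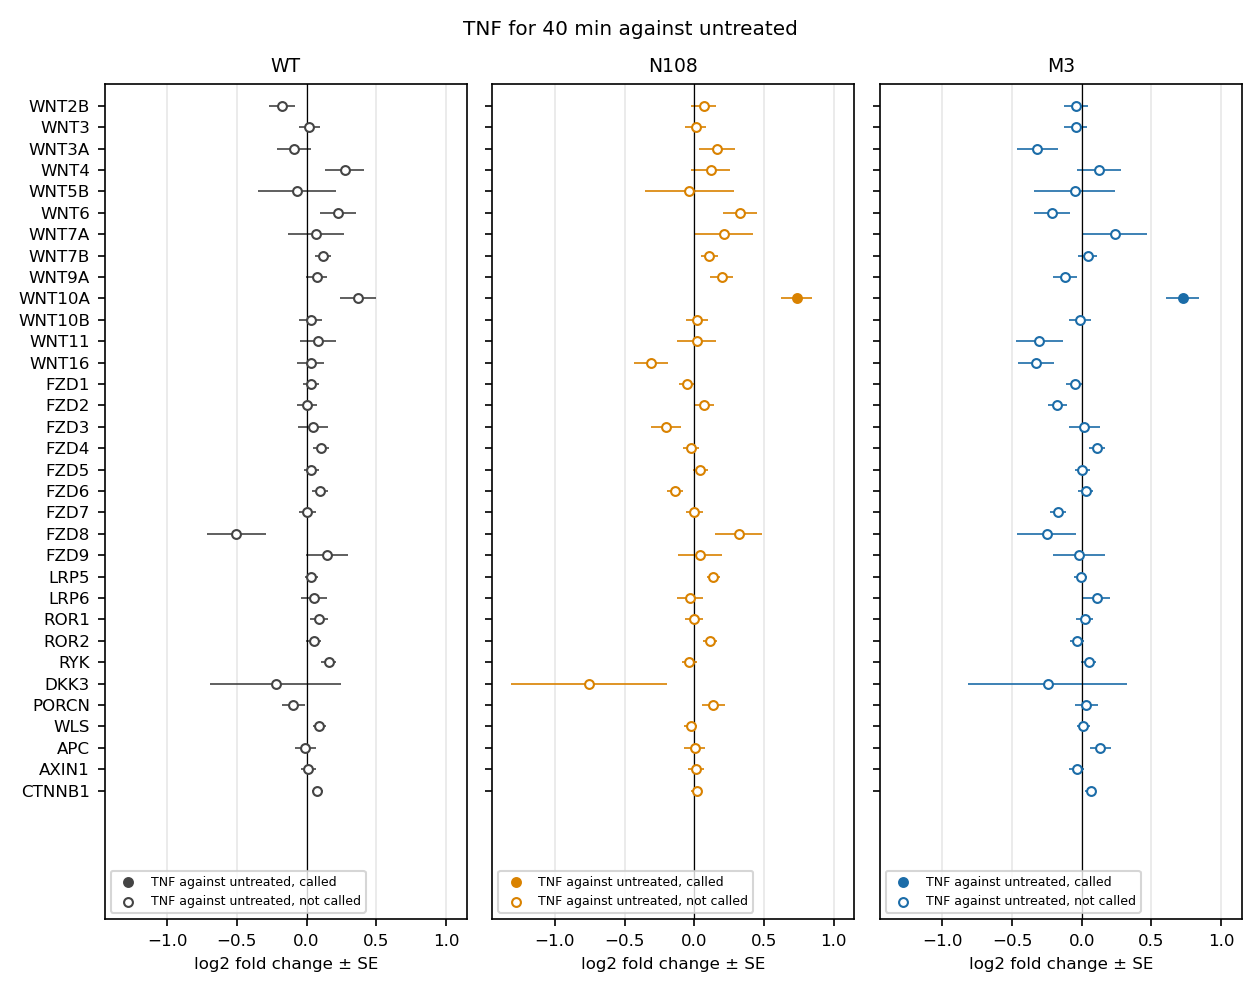
Log2 fold change ± SE of each tested member with TNF against untreated, in WT, N108 and M3, on a shared scale. WNT10A in N108 (0.74) and M3 (0.72) has the only filled points, which mark an adjusted p under 0.05.

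No member was called by edgeR in any interaction of TNF with genotype. The interactions of N108 and M3 with WT and of N108 with M3 held 5, 3 and 7 members at an unadjusted p under 0.05 and 0 by DESeq2, where 2.62%, 0.315% and 0.0788% of all genes were called. Without N108 TNF replicate 3, the interaction of N108 with WT held 2 called members, FZD6 and RYK. The share of all genes called in that fit is not given here. Deviations of that library from its group mean had a Spearman correlation of -0.52 with the GC content of the genes. For N108 TNF replicate 2 it was 0.45. The part of these trends in the calls that depend on either library was not tested.

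Other genes of the pathway were counted from 6 lists. The lists are not separate, since RNF43 is counted both with the E3 ligases and with the β-catenin target genes. The counts stand beside 20.9% of all genes higher and 21.6% lower in untreated N108, and 26.1% higher and 26.8% lower in untreated M3. In the genes for extracellular modulators, 12 of 19 were tested, with 4 higher and 4 lower in untreated N108 and 4 higher and 7 lower in untreated M3. GPC3, a glypican that binds Wnt proteins, was -1.56 in N108, and DKK1, which blocks LRP co-receptors, fell from 479 to 146 CPM in M3 (-1.71, adjusted p 2.6e-21). DKK4, of the same family, rose from 0.0861 to 2.03 CPM in M3 (4.58, adjusted p 5.9e-14), NOTUM, the enzyme that removes the lipid, changed by -0.77 in M3, and TRABD2A and KREMEN2 rose by 1.02 and 0.65 in N108. Of the R-spondin receptors and E3 ligases, all 4 tested changed in both lines. RNF43, a ligase that removes Frizzled receptors, was 2.65 higher in N108 (4.63 to 29.1 CPM) and 0.66 lower in M3, ZNRF3, its relative, was -0.27 and -1.11, and LGR6 -0.88 and -2.84.

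Among the cytoplasmic genes 4 were higher and 7 lower of 18 in N108, and 2 higher and 10 lower in M3. TNKS2, a tankyrase that destabilises axin, was -1.77 and -1.73, and AXIN2, the axin paralogue induced by β-catenin fell from 17.9 to 8.96 CPM in M3 (adjusted p 9.8e-13). CSNK1D, a kinase, was -0.34 and -0.38, and DVL1, which relays the Frizzled signal, was -0.37 in N108. Among 11 nuclear effectors 4 rose and 4 fell in N108, and 2 rose and 3 fell in M3, with TCF7L2, the main TCF factor of the intestine, up by 0.93 and 1.62. The co-repressors TLE1 (-0.64 in N108) and TLE2 (-0.46 and -0.61) fell, as did the co-activator BCL9L in M3 (-0.51). Of 11 planar polarity genes 3 rose and 4 fell in N108, and 3 rose and 5 fell in M3, where PRICKLE1 was -1.98 and -2.06 and VANGL2 1.28 and 1.06. SCRIB was -0.28 in N108 and CELSR1 -0.53 in M3. Of 14 β-catenin target genes tested, 6 were higher and 3 lower in N108 and 2 higher and 11 lower in M3. MYC (0.91 and 1.10) was higher in both, BMP4 (0.70) in N108, and SOX9 was lower in M3 (-0.77).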

How the data were processed

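Total RNA was sequenced as 50 bp paired-end reads in 18 libraries, per the labels. The authors deposited raw counts per gene; the submitters' processing notes name hg38, STAR 2.7.8, Trim Galore 0.6.6, DESeq2 1.38.3 and featureCounts (Subread 2.0.1). No annotation release or strand setting is stated there, and the deposited normalized table was not used.

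Counts were tested with edgeR 4.0.16 (R 4.3.3) after filterByExpr at a minimum count of 10, which kept 19038 genes with 99.97% of counts. TMM scaling and a robust quasi-likelihood model with 1 mean per group were used (12 residual degrees of freedom). Tests were two-sided, adjusted by Benjamini-Hochberg over all genes tested. SE was derived from the fold change and the F statistic. CPM were computed on TMM-scaled totals, and per-kb levels use GENCODE 29 exon lengths. The scripts were tested on simulated data.

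Values per library are given for members called with at least a 2-fold change and at least 0.5 CPM, or called for TNF or an interaction, and for LRP5, LRP6, APC, AXIN1, CTNNB1, PORCN and WLS. Of each other list, the 3 genes with the smallest p in each untreated mutant comparison are named. Members and lists were chosen with earlier results of these data known. DESeq2 1.42.0, DESeq2 size factors, 2 filters, GC correction, a replicate block and leave-one-out fits were the alternatives.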

Additional observations from a re-analysis of the deposited data

How the results depend on the processing

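Of 102 member calls over the 12 comparisons, 22 were lost in at least 1 setting and 0 reversed. The other 80 were called in the same direction in every setting that tested the gene. The settings were DESeq2, DESeq2 size factors in edgeR, a filter of 1 CPM in 3 libraries, no filter, removal of each library's GC trend, a replicate block and the omission of each library of a comparison. FZD8 did not pass the filter of 1 CPM in 3 libraries, so its calls with TNF were tried in 11 settings. WNT10A kept its TNF calls in N108 (0.61 to 0.78) and in M3 (0.70 to 0.80). With GC trends removed, 3 members were called for TNF in WT in place of 0: WNT10A (0.46, adjusted p 0.018), WNT7B (0.21, adjusted p 0.013) and LRP5 (0.12, adjusted p 0.037). The cause was not tested. Shares of all genes called in these settings are not given here. Counts of called members in them, here and below, therefore do not set the members apart.

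Leaving out 1 library gave 11 to 14 called members for untreated N108 against WT, 18 to 21 for M3 against WT and 9 to 12 for N108 against M3. With TNF the ranges were 13 to 17, 19 to 21 and 14 to 17. For TNF they were 0 in WT, 1 to 2 in N108 and 1 in M3, and for the interactions 0 to 2 for N108 against WT and 0 for the others. The count of 2 for TNF in N108 came without N108 TNF replicate 3, where LRP5 was added (0.17, adjusted p 0.04). The count of 2 for the interaction came without the same library. Fewer samples entered these fits.

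The replicate numbers did not pair the libraries: correlations of same-numbered deviations ran from -0.147 to 0.103, and 1 of 45 pairs was over 0.1. With the replicate block 12, 20 and 12 members were called in the untreated genotype comparisons, 15, 21 and 16 with TNF, and 0, 1 and 1 for TNF. It ended the calls of WNT6 in untreated N108 (adjusted p 0.055), PORCN in M3 with TNF (0.060) and WNT16 between the mutants (0.054 untreated, 0.052 with TNF). Depth limits members under about 0.2 CPM, such as DKK3.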
